A study of Mus musculus with 54 samples.

Results

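Intronic distal peaks are the accessible regions of these mouse embryonic stem (ES) cells that lie inside genes but away from their starts. A peak was counted when its centre base was more than 1 kb from every transcription start site (TSS) of GENCODE M21, inside a gene body, in no exon of any transcript and on an autosome. By this rule 39281 of the 113737 peaks in the list were members, or 35.2% of the 111741 autosomal peaks and 44.4% of the 88432 autosomal distal peaks. Of the other autosomal peaks, 23309 lay within 1 kb of a TSS, 43693 were distal and intergenic, and 5458 were distal and exonic.

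The study used ATAC-seq, in which the Tn5 transposase cuts open chromatin, on 54 libraries of ZHBTc4 mouse ES cells in 24 groups. In ZHBTc4 cells doxycycline (dox) shuts off Pou5f1, which encodes OCT4, and all groups, controls included, received dox. The cells also carried YPet-MD, a marker used for sorting, and lentiviral mCherry-OCT4-AID, a fusion protein that the constitutively expressed Tir1 ubiquitin ligase degrades when the auxin indole-3-acetic acid (IAA, 500 nM) is added. A set of 22 libraries compared 26 hr of dox alone with 26 hr of dox including 2 hr of IAA in cells sorted for Early G1, Late G1, S and Late S/G2, and 16 libraries of the same phases were taken at 31 hr of dox after a washout of 4.5 hr, with or without 2.5 hr of IAA before it. The last 16 libraries came from unsorted cells at 34 hr of dox, in which IAA was absent or had been present for times from 30 min to 10 hr (8 groups). The deposited list is a union of the peaks of the libraries and gives positions only, so no member can be assigned to a treatment or phase, no library depth is known from it, and markers of the cell type cannot be checked with it.

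Introns are the parts of a transcript that splicing removes, and the first intron of a gene is often its longest. Many enhancers, the elements that bind transcription factors and act on promoters from a distance, lie in introns of the gene they act on or of a neighbour. CTCF, a zinc finger protein that anchors chromatin loops, also binds at many intronic positions.

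The sequences below, read from GRCm38, are chosen examples of motif matches in members. Each is printed with 45 bases to each side of the match and the matched letters in capitals, on the strand of the motif. Those with OCT4::SOX2 were picked for the fewest mismatches and are not typical, as matches with up to 2 mismatches were in 0.163% of members. The composite OCT4::SOX2 motif of 15 letters is shown without a mismatch in the first intron of Galnt17, a gene for a glycosyltransferase, and with 1 mismatch in Ccser2 and in Dab1, which encodes an adaptor of reelin signalling, the first by symbol of the members with 1 mismatch. In Esrrb, which encodes an orphan nuclear receptor of the pluripotency network, a member of 900 bp in the third intron held the ESRRB motif TCAAGGTCA. Another member of Esrrb, of 853 bp, is shown because it held the exact CTCF match found in a host gene of the pluripotency list. The Zfp988 sequence is from a member of 1051 bp in the first intron of that gene, the densest of the ranked protein-coding hosts, and shows an AP-1 match (TGANTCA). That pattern matches on both strands, so its strand is only the one printed.
Galnt17, OCT4::SOX2, chr5:131177316-131177420, minus strand: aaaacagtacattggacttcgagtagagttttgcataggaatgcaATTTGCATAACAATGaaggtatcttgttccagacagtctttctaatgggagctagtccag
Ccser2, OCT4::SOX2, chr14:36914742-36914846, plus strand: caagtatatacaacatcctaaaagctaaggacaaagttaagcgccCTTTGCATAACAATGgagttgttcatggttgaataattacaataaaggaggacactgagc
Dab1, OCT4::SOX2, chr4:103838570-103838674, plus strand: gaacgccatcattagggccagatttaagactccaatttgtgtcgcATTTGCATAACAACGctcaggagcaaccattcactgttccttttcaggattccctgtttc
Esrrb, ESRRB, chr12:86502014-86502112, plus strand: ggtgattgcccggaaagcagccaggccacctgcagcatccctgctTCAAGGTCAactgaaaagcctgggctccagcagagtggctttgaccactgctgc
Zfp988, AP-1, chr4:147313029-147313125, plus strand: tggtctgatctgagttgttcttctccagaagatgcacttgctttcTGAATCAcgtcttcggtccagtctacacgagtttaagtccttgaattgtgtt
Esrrb, CTCF, chr12:86402882-86402983, minus strand: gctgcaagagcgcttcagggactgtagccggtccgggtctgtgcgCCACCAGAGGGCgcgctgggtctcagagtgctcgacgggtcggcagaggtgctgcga

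**Figure D1:**
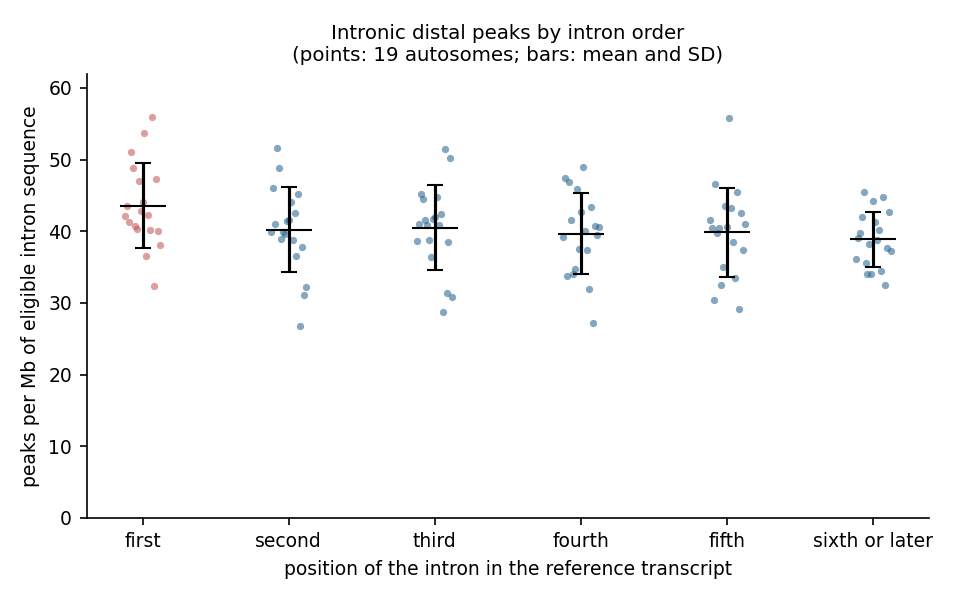
Peaks per Mb of eligible intron sequence (vertical axis) against the position of the intron in the reference transcript of its host (horizontal axis). Each point is 1 of the 19 autosomes and bars give mean and SD. The mean was 43.6 per Mb in first introns and between 38.8 and 40.5 per Mb in the other classes.

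To ask whether first introns held more members than later ones, each base was assigned to the intron of 1 reference transcript per gene, and peaks were divided by the eligible sequence, that is, the sequence in which a member could lie. First introns held 10469 members in 238 Mb (43.9 per Mb) and later introns held 24900 in 626 Mb (39.8 per Mb). A further 3912 members lay in gene bodies outside the introns of the reference transcript, at 38.8 per Mb. Over the 19 autosomes the density in first introns was 32.3 per Mb at the lowest (chromosome 16), 42.2 at the median and 55.9 at the highest (chromosome 15), and in later introns 30.2 (chromosome 16), 39.4 and 45.8 (chromosome 15). The ranges of the chromosomes overlapped, but first introns were denser on 18 of 19 chromosomes, all except chromosome 12, where they had 36.5 per Mb and later introns 39.4. On chromosome 8, 273 of the 760 members in first introns lay in 1 intron of the predicted readthrough gene Gm20388. The log2 ratio of first to later introns was 0.14 ± 0.11 (SD, 19 chromosomes; two-sided sign-flip permutation test, p = 0.0001). The chromosomes come from the same libraries, so the test covers variation along the genome and not between cultures.

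Beyond the first intron the pooled density was 40.9 per Mb in the second introns, 40.7 in the third, 40.1 in the fourth, 39.9 in the fifth and 38.8 in the sixth and later introns together. The differences among these classes were not tested. The plot of density by intron order shows them side by side.

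**Figure D2:**
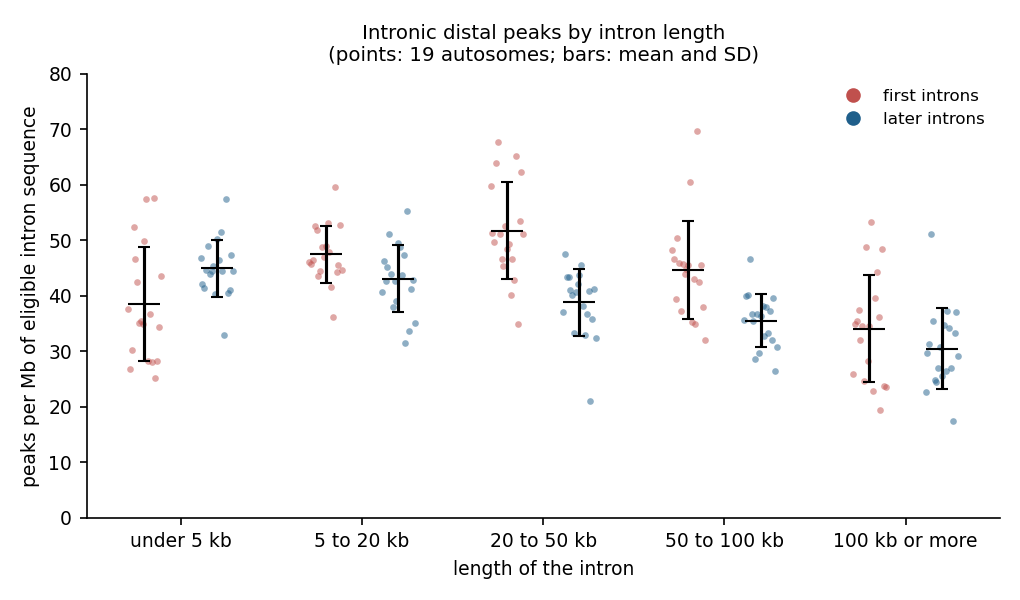
Peaks per Mb of eligible intron sequence (vertical axis) by intron length (horizontal axis), for first and later introns. Points are the 19 autosomes, bars mean and SD. First introns of 20 to 50 kb reached 51.7 per Mb on average and later introns of that length 38.8, and introns of 100 kb or more were the sparsest in both groups.

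Long introns held fewer members per Mb than short ones. Introns under 20 kb held 16878 members in 380 Mb (44.5 per Mb) and introns of 100 kb or more held 5770 in 179 Mb (32.2 per Mb). On chromosomes, introns under 20 kb ranged from 32.7 (chromosome 14) over a median of 43.8 to 56.7 per Mb (chromosome 15), and introns of 100 kb or more from 18.4 (chromosome 16) over 31.2 to 45.2 per Mb (chromosome 4). Short introns were denser on 18 of 19 chromosomes, with chromosome 14 as the exception at 32.7 against 36.8 per Mb. The log2 ratio was 0.50 ± 0.33 (SD, 19 chromosomes; sign-flip permutation test, p = 1e-05, the smallest value that 100000 resamples can give). Across all introns the density stayed at 44.5, 44.4 and 43.8 per Mb in introns under 5, 5 to 20 and 20 to 50 kb, and was 38.9 in those of 50 to 100 kb. Distance from the start of the gene was not held equal here, and its part in the difference between short and long introns was not tested.

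First and later introns were then compared within ranges of intron length. In introns of 20 to 50 kb first introns had 52.3 members per Mb (3079 in 58.9 Mb) and later introns 39.4 (4509 in 114 Mb), with higher density in first introns on 19 of 19 chromosomes. This log2 ratio of 0.41 ± 0.24 passed the permutation test (adjusted p = 2.5e-05, Benjamini-Hochberg over 5 ranges of length). In introns of 50 to 100 kb the pooled densities were 44.7 and 35.8 per Mb (log2 ratio 0.32 ± 0.26, higher on 18 of 19, adjusted permutation p = 2.5e-05), and in those of 5 to 20 kb 47.5 and 43.5 (0.15 ± 0.14, higher on 15 of 19, adjusted permutation p = 0.000817). Introns under 5 kb had the opposite order, with 38.9 per Mb in first and 44.9 in later introns (log2 ratio -0.26 ± 0.31, lower on 16 of 19, adjusted permutation p = 0.00216). These first introns held 484 members in 12.4 Mb of eligible sequence, against 6798 in 151 Mb for later introns. In this range the call was lost when the limit was 500 bp (log2 ratio -0.12, adjusted permutation p = 0.122) or 2500 bp (-0.17, adjusted permutation p = 0.19). In introns of 100 kb or more, 34.8 and 30.5 per Mb did not differ beyond the spread between chromosomes (0.14 ± 0.39, adjusted permutation p = 0.128). The ratios of the 5 length ranges were not tested against each other. Nor was distance from the start of the gene held equal within a length range, and its part in these ratios was not tested.

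**Figure D3:**
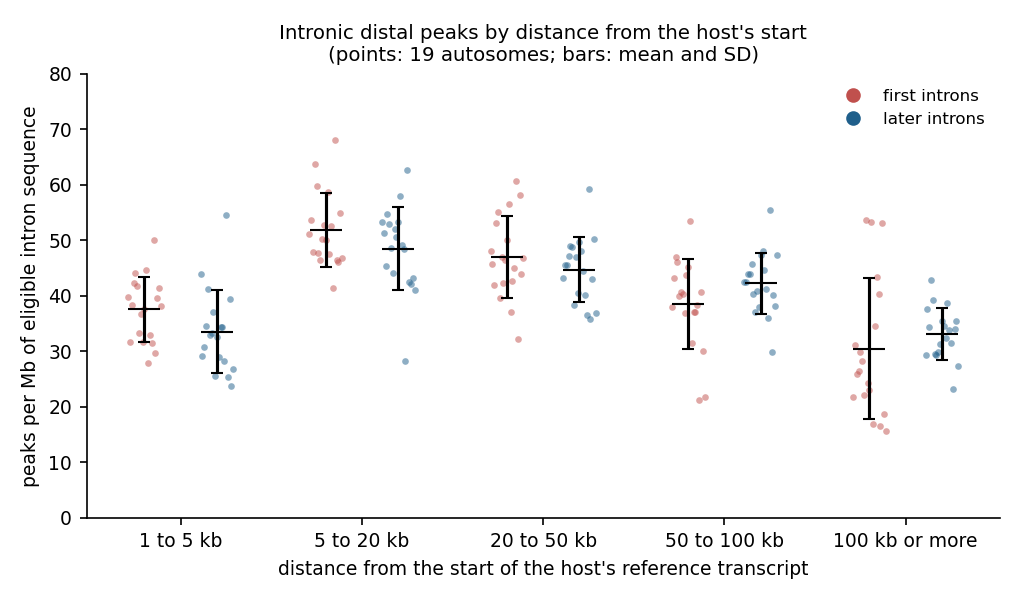
Peaks per Mb of eligible intron sequence (vertical axis) by distance from the start of the host's reference transcript (horizontal axis), for first and later introns. Points are the 19 autosomes, bars mean and SD. Both groups were highest at 5 to 20 kb, with means of 51.9 and 48.5 per Mb, and fell to 30.5 and 33.2 per Mb at 100 kb or more.

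First introns lie closer to the start of their gene, so the same comparison was made at like distances from the start of the host's reference transcript. Over all introns the density was 36.3 per Mb at 1 to 5 kb, peaked at 50.5 at 5 to 20 kb, and was 45.5 at 20 to 50, 41.8 at 50 to 100 and 33.4 at 100 kb or more. At 5 to 20 kb first introns had 52.3 and later introns 49.1 members per Mb (log2 ratio 0.11 ± 0.15, higher on 14 of 19 chromosomes, adjusted permutation p = 0.018). At 1 to 5 kb the densities were 37.5 and 33.8 per Mb (0.18 ± 0.28, higher on 13 of 19, adjusted permutation p = 0.0284). The other ranges did not pass, with log2 ratios of 0.07 ± 0.22 at 20 to 50 kb (adjusted permutation p = 0.194), -0.16 ± 0.33 at 50 to 100 kb (0.0646) and -0.22 ± 0.54 at 100 kb or more (0.117). The call at 1 to 5 kb was lost in 6 of 11 other ways of processing, among them leaving out peaks under 200 bp (log2 ratio 0.13, adjusted permutation p = 0.116) and joining peaks with gaps up to 500 bp (0.07, adjusted permutation p = 0.403). The call at 5 to 20 kb was lost with the transcript of the longest span as reference (0.09, adjusted permutation p = 0.0731). In the opposite direction, first introns had the lower density past the threshold at 50 to 100 kb when peaks were joined (-0.18, adjusted permutation p = 0.0244) and when the shorter of overlapping genes was the host (-0.17, adjusted permutation p = 0.0407). At 20 to 50 kb first introns were higher past the threshold when the first intron of any protein-coding transcript was counted as first (0.12, adjusted permutation p = 0.0467).

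The position of members within an intron was compared next. When each intron was cut into 3 equal parts along the direction of transcription, first introns had 41.3, 45.4 and 44.7 members per Mb in the 5′-most, middle and 3′-most part. The 5′-most part was lower than the 3′-most part on 14 of 19 chromosomes (log2 ratio -0.11 ± 0.17, permutation p = 0.012). This call was lost with the TSS limit at 500 bp (-0.06, permutation p = 0.166) and on unmasked bases (-0.09, permutation p = 0.0769). In later introns the 3 parts held 39.4, 39.9 and 40.0 members per Mb, and the difference of their ends did not pass (log2 ratio -0.01 ± 0.12, permutation p = 0.718).

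Intronic sequence as a whole was denser in members than intergenic sequence beyond 1 kb of a TSS was in intergenic peaks. The densities were 40.7 per Mb (39281 in 965 Mb) and 36.4 per Mb (43693 in 1200 Mb). Chromosomes ranged from 29.2 (chromosome 16) over 40.1 to 49.1 per Mb (chromosome 15) for introns, and from 23.4 (chromosome 16) over 37.7 to 42.9 per Mb (chromosome 11) between genes. Introns were higher on 15 of 19 chromosomes (log2 ratio 0.16 ± 0.16, permutation p = 0.00042), and lower on chromosomes 9, 13, 14 and 17. By the type of host gene, members lay at 41.6 per Mb in protein-coding genes (34324 members, 87.4%), at 34.8 in lincRNA genes (3153 members) and at 42.8 in genes annotated as antisense (792 members). An overlapping protein-coding gene was always taken as the host, so the lincRNA and antisense values cover only sequence outside protein-coding bodies. A peak has no strand.

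Most introns held no member, and a small share held 5 or more. Of 156154 reference introns with eligible sequence, 19883 (12.7%) held at least 1 member, 13770 of them exactly 1, and the 1155 introns with 5 or more held 26.0% of the members placed in introns. Introns with a member had a median length of 9021 bp, against 1592 bp for those without. The 27 members in the first intron of Ror2, a receptor tyrosine kinase of WNT5A signalling, lay in 136 kb of eligible sequence (1.99 per 10 kb), and the 49 in the third intron of Pde4d, a cAMP phosphodiesterase gene, in 692 kb (0.708 per 10 kb). The 66 members in the seventh intron of the glypican gene Gpc5 lay at 0.899 per 10 kb. The most members in 1 intron, 273, lay in the first intron of Gm20388, in 3551 kb of eligible sequence (0.769 per 10 kb). They were part of the 2478 members in first introns of 100 kb or more.

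**Figure D4:**
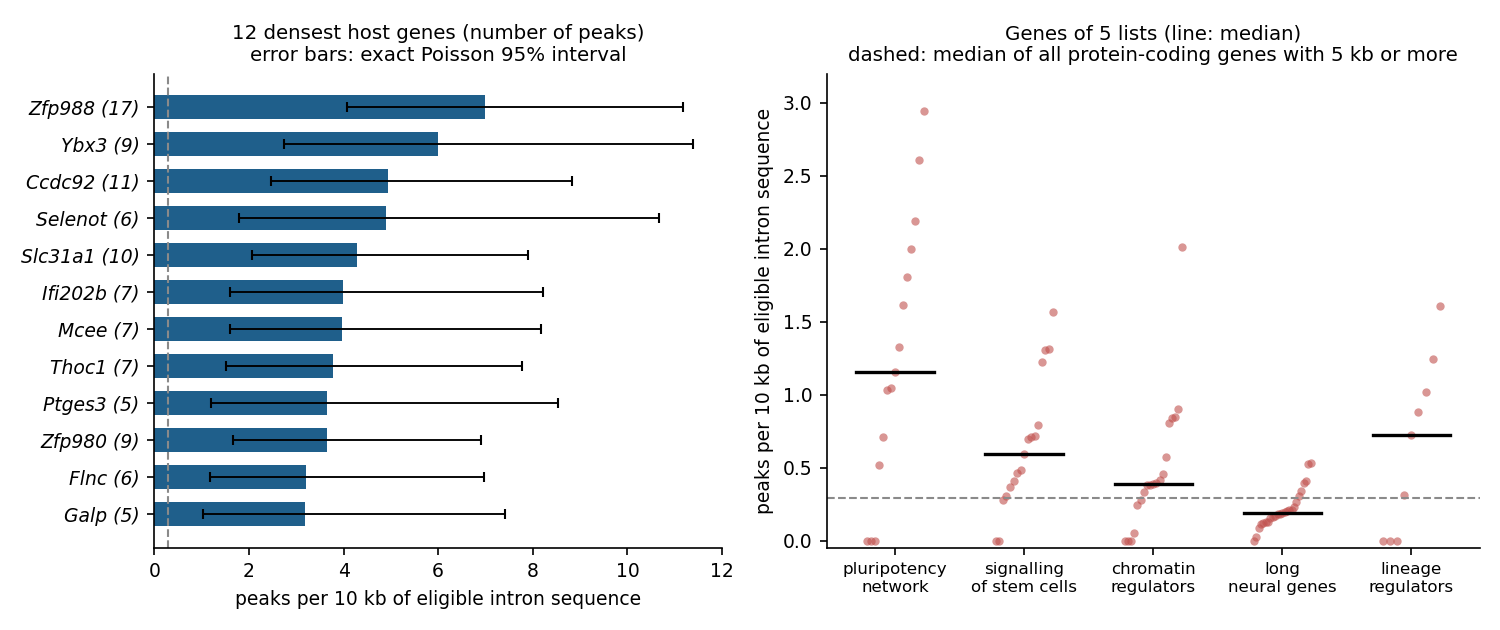
Left, peaks per 10 kb of eligible intron sequence (horizontal axis) in the 12 densest protein-coding host genes, with the number of peaks in parentheses and exact Poisson 95% intervals. Right, the same measure (vertical axis) for the genes of 5 lists, with list medians as lines. The dashed line at 0.293 is the median of 12697 protein-coding genes. The densest hosts lay between 3.18 and 6.98, and the median of the pluripotency list was 1.16.

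Members were found in 10380 host genes, 8344 of them protein-coding. Among 12697 protein-coding genes with at least 5 kb of eligible intron sequence the median was 0.293 members per 10 kb, the upper quartile 0.792 and the 95th percentile 1.66, and 4769 genes (37.6%) had none. The 12 densest hosts, with at least 10 kb of eligible sequence and 5 members, ranged from 3.18 to 6.98 per 10 kb, with exact Poisson intervals that overlapped (counting error only, as peaks in 1 gene are not independent). These values chose the genes, so they are a description.

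Zfp988, a zinc finger gene on chromosome 4 (147305674 to 147333734), was first with 17 members in 24.4 kb (6.98 per 10 kb, 95% interval 4.07 to 11.2). Its first intron held 13 of them, spaced from 1.43 to 18.7 kb from the gene's start and 228 to 1214 bp wide. A second zinc finger gene of the same chromosome, Zfp980, had 9 members in 24.7 kb (3.64 per 10 kb), and the lincRNA gene C230088H06Rik, whose body spans Zfp988, held 84 (2.94 per 10 kb) and 3 of the 5 members wider than 5 kb. With the shorter of overlapping genes as host, C230088H06Rik kept 16 members in 90.8 kb. Both zinc finger genes belong to a large family of closely related copies, and so does Ifi202b, an interferon-inducible gene with 7 members (3.99 per 10 kb). Reads of 1 copy can align to another, so the members of these genes are uncertain, and whether reads mapped to 1 copy only was not tested. The repeat-masked share of eligible sequence was 38.1% in Zfp988, and over the 12 hosts it ranged from 15.04% in Flnc to 48.9% in Ifi202b.

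Ybx3, which encodes a cold-shock domain protein that binds DNA and RNA, held 9 members (6.00 per 10 kb), none in its first intron and the widest of 2486 bp in the fifth. Ccdc92, a gene for a coiled-coil protein, held 11 in 22.3 kb (4.93 per 10 kb), 9 of them in the first intron and the widest, of 2596 bp, in the third. When peaks with gaps up to 500 bp were joined, Ccdc92 had 1.79 and Ybx3 2.67 per 10 kb, both outside the main interval, and Zfp988 4.93. The other hosts were Selenot (6 members, 4.90 per 10 kb), Slc31a1, the copper importer (10 members, 4.29), the metabolic gene Mcee (7, 3.97), Thoc1 of the mRNA-export THO complex (7, 3.77), the Hsp90 co-chaperone gene Ptges3 (5, 3.66), Flnc, encoding filamin C (6, 3.198), and Galp (5, 3.18). Of the 12, 7 stayed among the densest 12 with joined peaks and 4 when 20 kb of eligible sequence was required.

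The 10 genes with the most members had bodies of 474 to 4435 kb. The predicted readthrough gene Gm20388 had 274 over a body of 4435 kb (0.763 per 10 kb), of which 141 lay in the body of another protein-coding gene. It kept 133 when the shorter of overlapping genes was taken as host. Fgfr2, a fibroblast growth factor receptor annotated here with a body of 2961 kb, had 118 (0.461 per 10 kb) and 51 under that choice. The glypican genes Gpc5 and Gpc6 had 138 (0.971 per 10 kb) and 82 (0.787 per 10 kb). Pde4d had 87 (0.596), Macrod2 77 (0.394), Auts2 68 (0.688), the transcription factor gene Sox5 64 (0.698) and Ptprn2 55 (0.718). At the other end, Skint5, Robo2, Skint6, Ncam2 and Klhl1 had no member in 516, 471, 469, 406 and 406 kb of eligible intron sequence, where 3 peaks, the floor that a count of 0 allows, would be 0.0581 to 0.0739 per 10 kb and the exact Poisson 95% intervals reach up to 0.0715 to 0.0909 per 10 kb. The Skint genes are close copies too, and 47.0% and 48.0% of their eligible sequence was repeat-masked.

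The pluripotency network had the highest median density of 5 gene lists. Of the 24 autosomal genes of that list, 15 had at least 5 kb of eligible sequence, and 12 of the 15 lay above the general median, with a list median of 1.16 against 0.293 per 10 kb. Prdm14, a regulator of germ cells and naive pluripotency, had 3 members in 10.2 kb (2.94 per 10 kb), Trim71, an RNA-binding regulator that is a let-7 target, 12 in 46.0 kb (2.61), all in its first intron, Zfp42 (REX1), a marker of ES cells, 2 in 9.13 kb (2.19), and the methylcytosine oxidase gene Tet1 15 (2.00). There was no member in 3 genes, among them Lin28a and Sall4 with 6.60 and 10.9 kb. Such small counts left wide exact Poisson 95% intervals, 0.607 to 8.60 per 10 kb for Prdm14 and 0.265 to 7.91 for Zfp42. Those of Lin28a and Sall4 reached up to 5.59 and 3.38 per 10 kb, so they overlapped the intervals of the highest genes. Esrrb, from which sequences are printed above, had 24 members in 149 kb (1.62 per 10 kb, 95% interval 1.04 to 2.40). They lay between 4.50 and 155 kb from the start of the gene and were 214 to 1270 bp wide. Of these, 11 lay in the first intron of the reference transcript and 6 outside the introns of that transcript.

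The other lists were lower. For signalling genes of stem cells the median was 0.594 per 10 kb, and 14 of 17 genes lay above the general median. Axin2, a WNT target and inhibitor, was highest (3 members, 1.56 per 10 kb), followed by the WNT effector gene Lef1 (13, 1.32), the receptor gene Fgfr1 (5, 1.31) and the LIF receptor gene Lifr (11, 1.23), and Smad1 and Spry4 had none. The exact Poisson 95% intervals of Axin2 (0.323 to 4.57 per 10 kb) and Lef1 (0.701 to 2.25) overlapped, so their order is uncertain. Lineage regulators had a median of 0.726 over 9 genes, 6 of them above the general median. Tead4, a trophectoderm regulator, held 11 members (1.61 per 10 kb), the eye and neural gene Pax6 1 (1.24), Fgf5 2 (1.02) and Tead1 18 (0.882), and 3 genes had none, among them the endoderm gene Gata6 and the AP-2 factor gene Tfap2a with 24.1 and 6.46 kb. The exact Poisson 95% interval of Pax6 was 0.0314 to 6.92 per 10 kb, and those of Gata6 and Tfap2a reached up to 1.53 and 5.71.

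Chromatin regulators had a median of 0.386 over 19 genes, with 13 above the general median. The Polycomb accessory gene Mtf2 (6 members, 2.01 per 10 kb) was highest, and Kdm2b (8, 0.898), Setdb1 (2, 0.849) and Nsd1 (7, 0.843) came next, while 3 genes, Hdac1 and Kmt2d among them, had none. Long neural genes had the lowest list median, 0.191 over 25 genes, and 6 of 25 lay above the general median, although they held 732 members in 34.0 Mb. The glutamate receptor gene Grm7 (48 members, 0.526 per 10 kb), Kcnip4 (42, 0.410) and Macrod2 were among the highest, and Pcdh9, a protocadherin gene, had 2 members in 849 kb (0.0236 per 10 kb) and the axon guidance receptor gene Robo2 none. The lists hold genes of unlike length, and the part of gene length in their medians was not tested.

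The members were narrow regions. Their median width was 373 bp, with quartiles of 250 and 626 bp and a range from 152 to 14606 bp. The widest, on chromosome 13 (48606355 to 48620960), lay in the first intron of Ptpdc1. The median distance to the nearest TSS was 11006 bp and to the nearest exon edge 3327 bp, and 7.91% of members were wide enough to reach an exon. At the limit that defines a distal peak, 176 members lay up to 50 bp beyond 1 kb from a TSS, with a median width of 425 bp, and 211 intronic peaks that were not members lay up to 50 bp short of it, with a median of 395 bp.

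Members of first introns were wider and richer in G and C than those of later introns. The chromosome means of the median width were 391 ± 19.2 bp and 368 ± 23.0 bp (SD, n = 19), a difference of 22.9 ± 21.1 bp that was positive on 16 of 19 chromosomes (permutation p = 0.00018). The GC content of the 300 bp at the centre was 48.8% ± 1.07 and 47.8% ± 1.02 (SD, n = 19; difference 0.956 ± 0.695 percentage points, positive on 18 of 19, permutation p = 4e-05). Against intergenic peaks, members had a GC content higher by 0.450 ± 0.621 percentage points (16 of 19 chromosomes, permutation p = 0.00386), while the difference in median width of -7.68 ± 15.8 bp missed the threshold (permutation p = 0.0505) and passed it without chromosome 14 (-9.42 bp, permutation p = 0.0144). Repeat-masked bases made up 19.3% ± 1.23 of the central windows and 28.2% ± 0.965 of windows 2 kb to each side that overlapped no peak and no exon. The masked share was lower in the members on 19 of 19 chromosomes (difference -8.84 ± 1.08 percentage points, permutation p = 1e-05, the smallest possible).

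**Figure D5:**
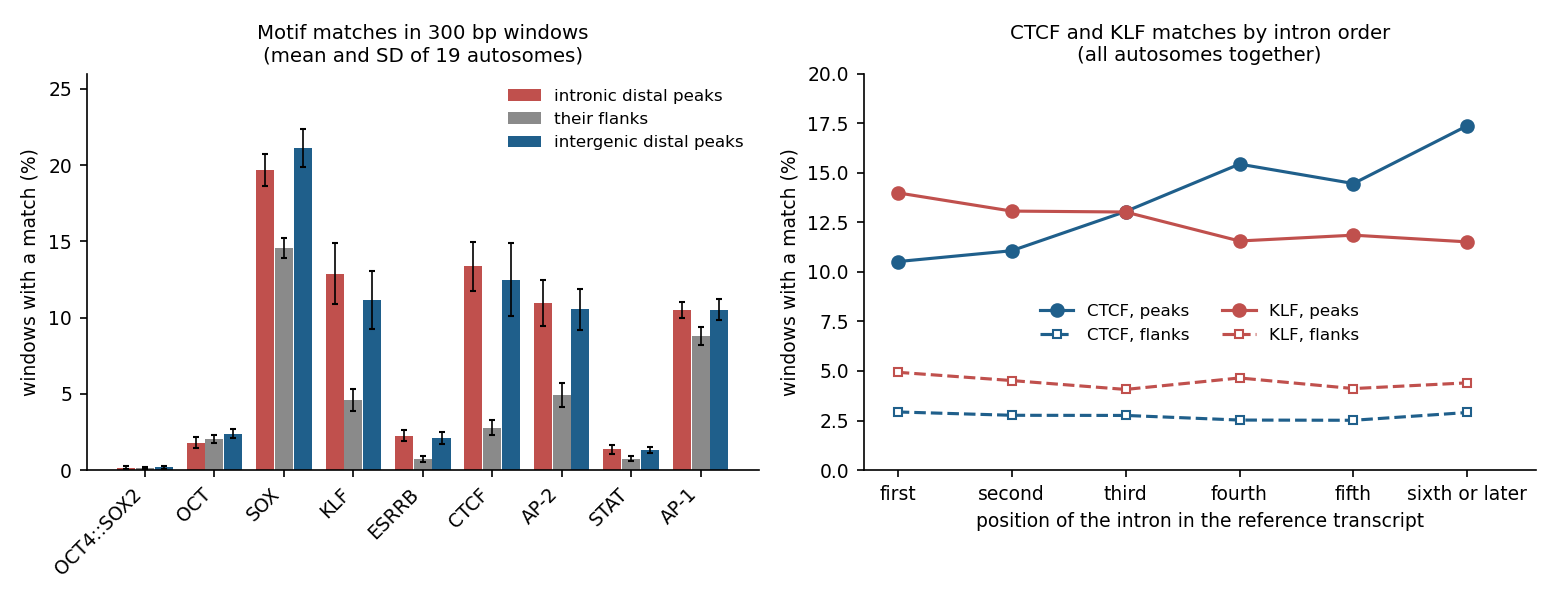
Left, share of 300 bp windows with a match (vertical axis) for 9 motifs in intronic distal peaks, their flanks and intergenic distal peaks, as mean and SD of 19 autosomes. Right, share of windows with a CTCF or KLF match in the peaks (filled) and their flanks (open) by intron order. CTCF matches rose from 10.5% of peaks in first introns to 17.4% in the sixth and later introns, while the flanks stayed between 2.51% and 2.93%.

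To describe the sequence of the members, 9 motifs were searched on both strands in the 300 bp at the centre of each. These were the composite OCT4::SOX2 motif with up to 2 mismatches, CTCF with up to 1, and without mismatch OCT (ATTTGCAT, which is contained in OCT4::SOX2), SOX (CCNTTGT), KLF (GGGNGNGGC), ESRRB (TCAAGGTCA), AP-2 (GCCNNNGGC), STAT (TTCCNGGAA) and AP-1 (TGANTCA). In pooled windows, CTCF matches were in 13.4% of members, 2.80% of flanks and 12.2% of intergenic peaks, and KLF matches in 12.8%, 4.56% and 11.0%. ESRRB matches were in 2.29%, 0.728% and 2.06%, AP-2 in 10.9%, 4.92% and 10.5%, STAT in 1.33%, 0.753% and 1.28%, and SOX in 19.7%, 14.5% and 21.03%. For these 6 motifs and AP-1 (10.5% of members, 8.78% of flanks) the share was higher in members than in flanks on 19 of 19 chromosomes (adjusted permutation p = 1.29e-05 each, Benjamini-Hochberg over 9). The OCT motif was less frequent in members than in flanks (1.82% and 2.06%, lower on 14 of 19, adjusted permutation p = 0.00255), and the OCT4::SOX2 motif was in 0.163% of members and 0.123% of flanks, which did not pass (adjusted permutation p = 0.183). Only 64 members held an OCT4::SOX2 match, so each chromosome had few, and a small difference could be missed. The paper searched motifs with HOMER, so its shares and those of this search by letters are not comparable. The OCT difference was lost with 200 bp windows (-0.12 points, adjusted permutation p = 0.0604), and that of OCT4::SOX2 passed with flanks 5 kb away (0.0752 points, adjusted permutation p = 0.0107). Outside chromosome 18 the OCT4::SOX2 match had no mismatch in 1 member, 1 in 11 and 2 in 51. The central windows had 48.1% GC and the flanks 43.6%, and the part of base composition in the differences was not tested.

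Compared with intergenic peaks, members held KLF matches more often, by 1.71 ± 1.26 percentage points (17 of 19 chromosomes, adjusted permutation p = 0.00027), and CTCF matches, by 0.879 ± 1.32 points (15 of 19, adjusted permutation p = 0.0136). SOX matches were less frequent in members (difference -1.43 ± 1.22 points, lower on 17 of 19, adjusted permutation p = 0.00027) and so were OCT matches (-0.586 ± 0.476, lower on 17 of 19, adjusted permutation p = 0.00051). The CTCF difference was lost when no mismatch was allowed (0.01 points, adjusted permutation p = 0.932). The other 5 motifs did not pass, but with 500 bp windows ESRRB (0.426 points, adjusted permutation p = 0.00112) and AP-2 (1.19 points, adjusted permutation p = 0.00916) did.

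Between first and later introns, 1 of the 9 motifs, CTCF, differed past the threshold. The chromosome means were 10.5% of members in first introns and 14.7% in later introns, a difference of -4.20 ± 2.46 percentage points that was negative on 18 of 19 chromosomes (adjusted permutation p = 9e-05). The share was 11.1% in the second introns, 13.04% in the third, 15.4% in the fourth, 14.5% in the fifth and 17.4% in the sixth and later ones. Exact CTCF matches were in 2.56% of members in first introns and 5.57% in the sixth and later introns. In the flanks of the same members the share with up to 1 mismatch was 2.93% for first and 2.91% for the sixth and later introns.

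CTCF matches also differed by intron length, in values given here without a test. Matches were in 20.4% of members in introns under 5 kb, 15.1% at 5 to 20 kb, 11.1% at 20 to 50 kb, 9.16% at 50 to 100 kb and 8.94% at 100 kb or more. The flanks fell from 3.72% to 1.98% over the same ranges. Within each range up to 100 kb later introns had the higher share, from 20.8% against 15.1% under 5 kb to 9.43% against 8.74% at 50 to 100 kb, but at 100 kb or more first introns had 10.0% and later introns 8.14%. Members of later introns lay nearer to exons, with medians of 5.59 kb in first introns and 1.39 kb in the sixth and later ones, and the part of this distance in the CTCF share was not tested.

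KLF matches were in 13.98% of members in first introns and 11.5% in the sixth and later introns, and in 4.93% and 4.40% of their flanks. The first against later difference of 1.61 ± 2.42 points was positive on 17 of 19 chromosomes but missed the threshold after adjustment (adjusted permutation p = 0.0512), as did that of AP-2 (1.28 ± 2.18 points, adjusted permutation p = 0.0537). Without chromosome 14, and with windows of 200 or 500 bp, both passed. The differences of OCT4::SOX2, OCT, SOX, ESRRB, STAT and AP-1 did not pass, except that of ESRRB with 500 bp windows (0.605 points, adjusted permutation p = 0.0275).

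The AP-2, STAT and AP-1 patterns read the same on both strands and were left out here. The other motifs have a direction, as has the host gene. Among members with a match on 1 strand only, the SOX motif lay on the strand of the host transcript in 58.0% (95% Wilson interval 56.8 to 59.1, counting error only) and the ESRRB motif in 43.6% (40.3 to 46.8). In the flanks the shares were 58.0% and 41.3%. The KLF motif lay on the host strand in 53.0% of members (51.6 to 54.4) and 48.3% of flanks (46.5 to 50.1), and the CTCF motif in 49.6% and 50.3%. These shares were not tested over chromosomes.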

How the data were processed

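ATAC-seq libraries of ZHBTc4 mouse ES cells were aligned by the authors to GRCm38 with STAR 2.6.1c, duplicates were removed with Picard, peaks were called with MACS2 2.1.1.20160309, and the peaks of all libraries were merged with bedtools. The deposited list has 3 columns (chromosome, start, end) and no header, and carries no count, signal or score. Per the methods, peaks larger than 5 kb, blacklisted or overlapping input peaks were removed, but 11 peaks over 5 kb were still listed, so at least the size filter had not been applied to it. No peak ended beyond its chromosome in GRCm38.p6. Starts were made 1-based in print.

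Eligible sequence was in a gene body, in no exon, more than 1 kb from every transcript start of GENCODE M21 and not N. The reference transcript of a protein-coding gene was the best APPRIS principal one, then the longest when spliced. Where genes overlapped, a protein-coding gene, then the longer gene, was the host. Differences and log2 ratios per autosome were assessed by flipping their signs at random (two-sided permutation test, 100000 resamples, fixed seed, threshold 0.05), in code written in Python 3.11.15 with numpy 2.4.6 and tested on simulated data. Chromosomes needed 0.1 Mb of eligible sequence in both groups.

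The members, gene lists, motifs and tests were chosen with earlier results of these data known. Named genes were the 12 densest protein-coding hosts, the 10 with the most members, the 5 with the most eligible sequence and no member, and from each of 5 lists the 4 highest and 2 lowest, except that 1 gene is not reported here. Esrrb, Galnt17, Ccser2 and Dab1 were named for their sequences, and Ror2 and Ptpdc1 were named after their values were seen. The alternatives that took the transcript of the longest span as reference, or the shorter gene as host, were chosen after seeing the data.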

Additional observations from a re-analysis of the deposited data

How the results depend on the processing

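No paired analysis was possible because the deposited list pools all libraries and carries no replicate. First against later introns kept direction and side of the threshold in 11 of 11 alternatives, and short against long introns and intronic against intergenic density in 7 of 7 each. The number of distance ranges in which first and later introns differed was 2, and it was 1 with the TSS limit at 2500 bp, without peaks under 200 bp, with protein-coding hosts only, with at least 3 introns per transcript and with the transcript of the longest span, which was added after seeing the data. It was 3 with the shorter gene as host, also added then, where 50 to 100 kb joined with first introns lower. With joined peaks and with the first intron of any protein-coding transcript it was 2 again but from other ranges, since 1 to 5 kb was lost and 50 to 100 kb (first introns lower) or 20 to 50 kb gained. The number of length ranges fell from 4 to 3 with the limit at 500 or 2500 bp. The 5′-most against 3′-most difference in first introns was lost with the limit at 500 bp (-0.0556, permutation p = 0.166) and on unmasked bases (-0.0908, permutation p = 0.0769), and in later introns it turned to 0.0022 without peaks under 200 bp (permutation p = 0.939). Members became narrower than intergenic peaks past the threshold without chromosome 14 (-9.42 bp, permutation p = 0.0144) and at 2500 bp (-9.34 bp, permutation p = 0.0337). The number of motifs that differed between first and later introns was 1, and it was 3 with 200 bp windows, 4 with 500 bp windows, 3 without chromosome 14 and 2 without peaks under 200 bp. Against flanks 8 motifs differed, between 7 and 9 in the alternatives, and against intergenic peaks 4, between 3 and 6. Directions turned, in values far from the threshold, for STAT between intronic and intergenic peaks with 200 bp (-0.0209 points) and 500 bp windows (-0.095), for AP-1 with 200 bp windows (0.0523) and without peaks under 200 bp (0.0215), and between first and later introns for STAT with 500 bp windows (-0.0396) and for OCT4::SOX2 with 1 more mismatch (0.0401). The cause was not tested for any of these. A pooled peak list limits all values to whether a region was called in any library, and regions too weak to be called are not in it.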
